A study of Mus musculus with 2 samples.

Results

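Glycolysis turns glucose into pyruvate and lactate, and a set of 31 mouse genes chosen by symbol was followed here in immune cells of the lung: the genes of glucose entry, of the glycolytic steps, of the fate of pyruvate, and of oxygen sensing and the hypoxia response. The symbols match 32 rows of the 31053 gene rows of the count matrices. Aldoa has a row for each of 2 gene identifiers, and ENSMUSG00000114515 held 0 UMIs in both libraries, so all 31 genes rest on 1 row each. The study sorted CD45+ leukocytes from perfused and digested mouse lungs and sequenced them on a droplet platform that reads the 3′ ends of transcripts and counts each captured molecule once by its unique molecular identifier (UMI). The exposed library came from mice that inhaled diesel exhaust particles (DEP) at 500 µg/m³ for 1 hour a day, 5 days a week, for 2 weeks, and its genotype label reads Ccr2-/- (KO), CD45.3+. The control library came from untreated mice and its genotype label reads Ccr2-/- (KO), CD45.1+. Ccr2 encodes the chemokine receptor by which classical monocytes leave the bone marrow, and CD45.1 is an allele label of the leukocyte surface protein CD45. The series' design names both wild-type and knockout mice. In the files Ccr2 had a UMI in 97.8% of exposed and 91.8% of control classical monocytes, against 0.612% of exposed and 0.813% of control B cells. Ccr2 is also among the markers used below to name classical monocytes, so a high share there is partly built in. Whether the 3′ tags of Ccr2 lie outside the deleted part is not given in the sources used here, so they do not check the genotype labels, which are the same for both libraries. How many animals were pooled into a library is not given in the sources used here. With 1 library for each condition there is no replicate check of any difference between them, and exposure, the CD45 allele and any other difference between the libraries cannot be told apart.

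As background, cells take up glucose through carriers of the Slc2a family, trap it with hexokinases and split and oxidise it in the steps from Gpi1 to Pkm, after which Ldha makes lactate and Slc16a3 exports it. When oxygen is scarce, the prolyl hydroxylases that mark the transcription factor subunit HIF-1α for destruction slow down, and HIF-1 raises many of these genes together with Vegfa, Bnip3 and Adm. Neutrophils live largely on glycolysis, and activated macrophages and monocytes raise it, whereas resting alveolar macrophages are known for lipid-based metabolism in an oxygen-rich space.

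The libraries held 10000 (exposed) and 10312 (control) barcodes, with 67030914 UMIs in the exposed and 62047730 in the control library, and shared 23 barcode sequences. After the cell filter and doublet removal 8690 exposed and 8940 control cells remained, with medians of 4143 (exposed) and 3671.5 (control) UMIs. Ptprc, which encodes CD45, had a UMI in 95.8% of the exposed and 95.6% of the control cells. Clusters, built without the 31 genes, were named from marker lists as classical monocyte-like, alveolar macrophage-like and so on. The suffix is left out below. All names were rebuilt here and 13 classes had at least 50 cells in each library, 1 of them being cells led by proliferation genes. 1 neutrophil cluster was led by interferon-response genes. Marker gates applied cell by cell gave the same class for 98.4% of the cells they could place. The gates use the same marker lists as the names, so this is not an independent check of the names. Levels are UMIs summed over the cells of a class and scaled to the total UMIs of that class and library, in the usual unit of CPM. Because each molecule is tagged once at its 3′ end, transcript length does not enter these values. Intervals are exact at 95% and cover counting error only. They say nothing of the spread between animals.

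HIF-1 is known to bind a short core that reads ACGTG or GCGTG near the genes it regulates. RefSeq promoter windows of 300 bases (250 before and 50 after the start, GRCm38.p6) were found for 28 of the 31 genes, Ero1l under its newer symbol Ero1a. Slc2a3, Bnip3l and Ndrg1 were not in the table. On either strand (reverse complements CACGT and CACGC), a core was present in at least 1 window of 26 of these 28 genes (92.9%), against 46.7% of all 27025 genes in the table. ACGTG on one strand overlaps CACGT on the other wherever CACGTG occurs, and such overlapping matches were each counted. These 5-letter matches are a description and not a measured binding site. Windows of 6 genes that the results on classical monocytes turn on are printed with each core in capitals: Gapdh, Pgk1, Ldha and Tpi1, which were called higher in exposed classical monocytes, and Hk2 and Vegfa, which were called lower. Where a gene had several windows, that with the most matches is shown, which for Vegfa and Ldha is an annotated start inside the gene. The Gapdh window also lies inside the span of its gene as given below. The other Vegfa window held 0 matches.
Gapdh: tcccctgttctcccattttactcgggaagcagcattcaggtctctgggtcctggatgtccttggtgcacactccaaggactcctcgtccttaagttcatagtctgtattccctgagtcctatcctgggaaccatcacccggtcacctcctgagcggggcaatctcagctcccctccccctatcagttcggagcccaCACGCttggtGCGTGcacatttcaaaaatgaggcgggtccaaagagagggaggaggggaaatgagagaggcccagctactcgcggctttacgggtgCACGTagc
Pgk1: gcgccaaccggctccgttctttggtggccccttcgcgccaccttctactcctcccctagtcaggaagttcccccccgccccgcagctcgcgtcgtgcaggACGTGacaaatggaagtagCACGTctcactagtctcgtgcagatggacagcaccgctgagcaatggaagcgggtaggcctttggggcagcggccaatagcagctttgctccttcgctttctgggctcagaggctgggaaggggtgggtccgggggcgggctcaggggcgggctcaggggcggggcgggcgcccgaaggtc
Ldha: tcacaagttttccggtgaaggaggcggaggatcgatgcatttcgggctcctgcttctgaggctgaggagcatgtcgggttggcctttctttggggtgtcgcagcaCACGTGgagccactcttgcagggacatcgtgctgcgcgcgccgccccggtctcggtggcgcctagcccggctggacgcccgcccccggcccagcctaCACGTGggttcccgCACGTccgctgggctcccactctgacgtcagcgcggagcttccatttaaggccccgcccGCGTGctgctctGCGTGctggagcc
Tpi1: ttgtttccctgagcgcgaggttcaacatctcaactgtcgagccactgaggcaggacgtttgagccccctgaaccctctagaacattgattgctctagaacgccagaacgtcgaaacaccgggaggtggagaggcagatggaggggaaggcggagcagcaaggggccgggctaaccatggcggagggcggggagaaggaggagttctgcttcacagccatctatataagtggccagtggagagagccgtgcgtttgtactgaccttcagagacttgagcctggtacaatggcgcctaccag
Hk2: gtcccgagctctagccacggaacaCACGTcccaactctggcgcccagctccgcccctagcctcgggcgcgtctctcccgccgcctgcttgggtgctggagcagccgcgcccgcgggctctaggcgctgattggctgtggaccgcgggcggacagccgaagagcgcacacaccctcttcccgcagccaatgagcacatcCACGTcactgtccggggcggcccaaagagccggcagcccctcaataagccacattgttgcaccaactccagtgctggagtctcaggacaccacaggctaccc
Vegfa: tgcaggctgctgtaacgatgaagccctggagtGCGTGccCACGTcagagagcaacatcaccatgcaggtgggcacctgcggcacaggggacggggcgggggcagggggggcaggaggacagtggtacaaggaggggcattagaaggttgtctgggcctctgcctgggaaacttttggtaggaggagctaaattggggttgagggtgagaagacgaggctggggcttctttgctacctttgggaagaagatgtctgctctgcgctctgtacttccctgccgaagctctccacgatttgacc
The windows lie at chr6:125165724-125166023, reverse strand for Gapdh, chrX:106186850-106187149, forward strand for Pgk1, chr7:46845554-46845853, forward strand for Ldha, chr6:124814109-124814408, reverse strand for Tpi1, chr6:82774405-82774704, reverse strand for Hk2 and chr17:46025114-46025413, reverse strand for Vegfa. The Ldha window held 7 matches, that of Gapdh 3, those of Pgk1, Hk2 and Vegfa 2 each, and that of Tpi1 0.

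The genes were expressed in class-specific patterns that both libraries shared. For 24 of the 31 genes the class with the highest level was the same in the exposed and the control library, and over 12 classes (cycling cells left out) the Pearson correlation of a gene's log2 levels between the libraries had a median of 0.96 and a lowest value of 0.81, for Pfkfb3. The classes were built over both libraries together, so this is a description. Summed over all 31 genes, levels were highest in neutrophils, with 5513 CPM in exposed and 5699 CPM in control cells, and lowest in B cells, with 1805 CPM in exposed and 1883 CPM in control cells. Alveolar macrophages had 4473 CPM in exposed and 4574 CPM in control cells. Classical monocytes had 4778 CPM in exposed cells, second to neutrophils, and 3801 CPM in control cells, where cycling cells (4163 CPM), gamma-delta T cells (3857 CPM) and nonclassical monocytes (3833 CPM) also stood above them.

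**Figure D1:**
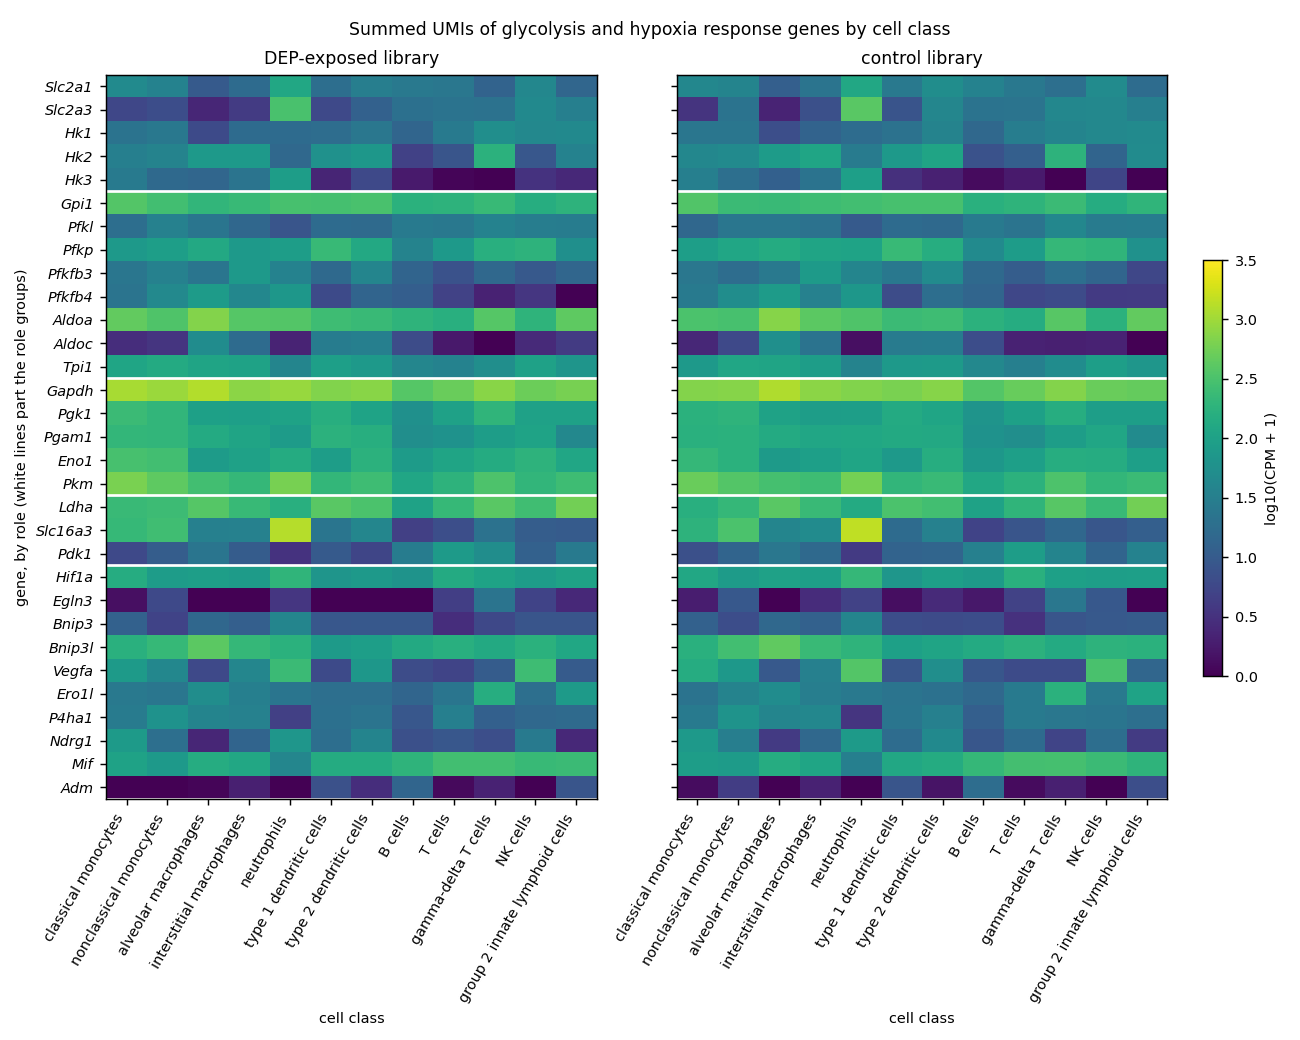
Level of each of the 31 genes (rows, grouped by role) in 12 cell classes (columns) of the DEP-exposed library (left) and the control library (right), as log10(CPM + 1) of summed UMIs in colour. Slc16a3 and Slc2a3 stand out in neutrophils, Aldoa in alveolar macrophages and Hk2 and Ero1l in gamma-delta T cells of both libraries.

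Among the genes of glucose entry, Slc2a1 and Slc2a3 encode the broadly used glucose carriers GLUT1 and GLUT3. Slc2a1 stood at 126 and 126 CPM in exposed and control neutrophils, 46.4 and 40.4 CPM in classical monocytes, 40.4 and 47.6 CPM in NK cells, 34.7 and 37.3 CPM in nonclassical monocytes, 30.7 and 50.6 CPM in type 2 dendritic cells and 24.9 and 34.2 CPM in B cells. For Slc2a1, the remaining exposed and control levels were 23.4 and 24.0 CPM in T cells, 19.4 and 26.0 CPM in proliferating (cycling) cells, 17.4 and 25.2 CPM in type 1 dendritic cells, 15.5 and 20.9 CPM in interstitial macrophages, 13.5 and 16.5 CPM in group 2 innate lymphoid cells, 11.9 and 17.9 CPM in gamma-delta T cells and 8.69 and 10.6 CPM in alveolar macrophages. Neutrophils were above every other class for Slc2a1, with intervals that did not overlap those of the next class in either library. Slc2a3 stood at 316 and 398 CPM in exposed and control neutrophils, 44.5 and 42.6 CPM in NK cells, 31.5 and 31.5 CPM in group 2 innate lymphoid cells, 20.3 and 21.5 CPM in T cells, 20.2 and 41.0 CPM in gamma-delta T cells and 18.4 and 20.9 CPM in B cells. For Slc2a3, the remaining exposed and control levels were 11.3 and 39.3 CPM in type 2 dendritic cells, 6.62 and 10.6 CPM in proliferating (cycling) cells, 5.65 and 20.7 CPM in nonclassical monocytes, 4.83 and 7.15 CPM in type 1 dendritic cells, 4.58 and 2.38 CPM in classical monocytes, 3.01 and 6.10 CPM in interstitial macrophages and 1.36 and 1.25 CPM in alveolar macrophages. Slc2a3 was the main carrier gene of neutrophils, giving 71.5% (interval 70.0 to 73.0%) of the UMIs of the pair in exposed and 75.9% (interval 74.5 to 77.2%) in control neutrophils. In classical monocytes its share was 8.97% in exposed and 5.56% in control cells.

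Hexokinases phosphorylate glucose so that it cannot leave the cell. Hk1 is the housekeeping form, Hk2 the inducible form, and Hk3 a form known from myeloid cells. Hk2 stood at 178 and 179.9 CPM in exposed and control gamma-delta T cells, 74.7 and 114 CPM in interstitial macrophages, 73.7 and 83.3 CPM in alveolar macrophages, 71.3 and 109.8 CPM in type 2 dendritic cells, 57.7 and 55.2 CPM in proliferating (cycling) cells and 57.3 and 76.3 CPM in type 1 dendritic cells. For Hk2, the remaining exposed and control levels were 35.5 and 45.6 CPM in nonclassical monocytes, 34.5 and 48.0 CPM in group 2 innate lymphoid cells, 31 and 41.3 CPM in classical monocytes, 14.1 and 27.2 CPM in neutrophils, 7.94 and 12.5 CPM in NK cells, 7.43 and 10.5 CPM in T cells and 3.81 and 6.55 CPM in B cells. Gamma-delta T cells led, macrophages and dendritic cells followed, and B, T and NK cells were low. Hk3 stood at 87.4 and 92.5 CPM in exposed and control neutrophils, 26.2 and 31.2 CPM in classical monocytes, 21.1 and 20.6 CPM in interstitial macrophages, 14.5 and 18.2 CPM in nonclassical monocytes, 13.2 and 10.7 CPM in alveolar macrophages and 6.62 and 6.85 CPM in proliferating (cycling) cells. For Hk3, the remaining exposed and control levels were 5.01 and 1.08 CPM in type 2 dendritic cells, 2.22 and 4.38 CPM in NK cells, 1.50 and 0 CPM in group 2 innate lymphoid cells, 1.29 and 2.04 CPM in type 1 dendritic cells, 0.816 and 0.268 CPM in B cells, 0.122 and 0.795 CPM in T cells and 0 and 0 CPM in gamma-delta T cells. Hk3 was highest in neutrophils, lower in monocytes and macrophages, and at or near 0 in T, B, gamma-delta T and innate lymphoid cells. Its 0 UMIs in gamma-delta T cells allow up to 4.38 CPM in exposed and 3.88 CPM in control cells. The leading hexokinase gene differed between classes. Of all hexokinase UMIs, Hk3 gave 74.4% (interval 71.5 to 77.2%) in exposed and 68.1% (interval 65.1 to 70.9%) in control neutrophils. Hk2 gave 80.2% (interval 77.1 to 83.0%) in exposed and 83.4% (interval 80.5 to 86.1%) in control alveolar macrophages. Hk1 gave 80.6% (interval 73.7 to 86.3%) in exposed and 71.0% (interval 64.2 to 77.2%) in control NK cells. Classical monocytes used all 3, with Hk2 at 39.9% in exposed and 43.4% in control cells.

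**Figure D2:**
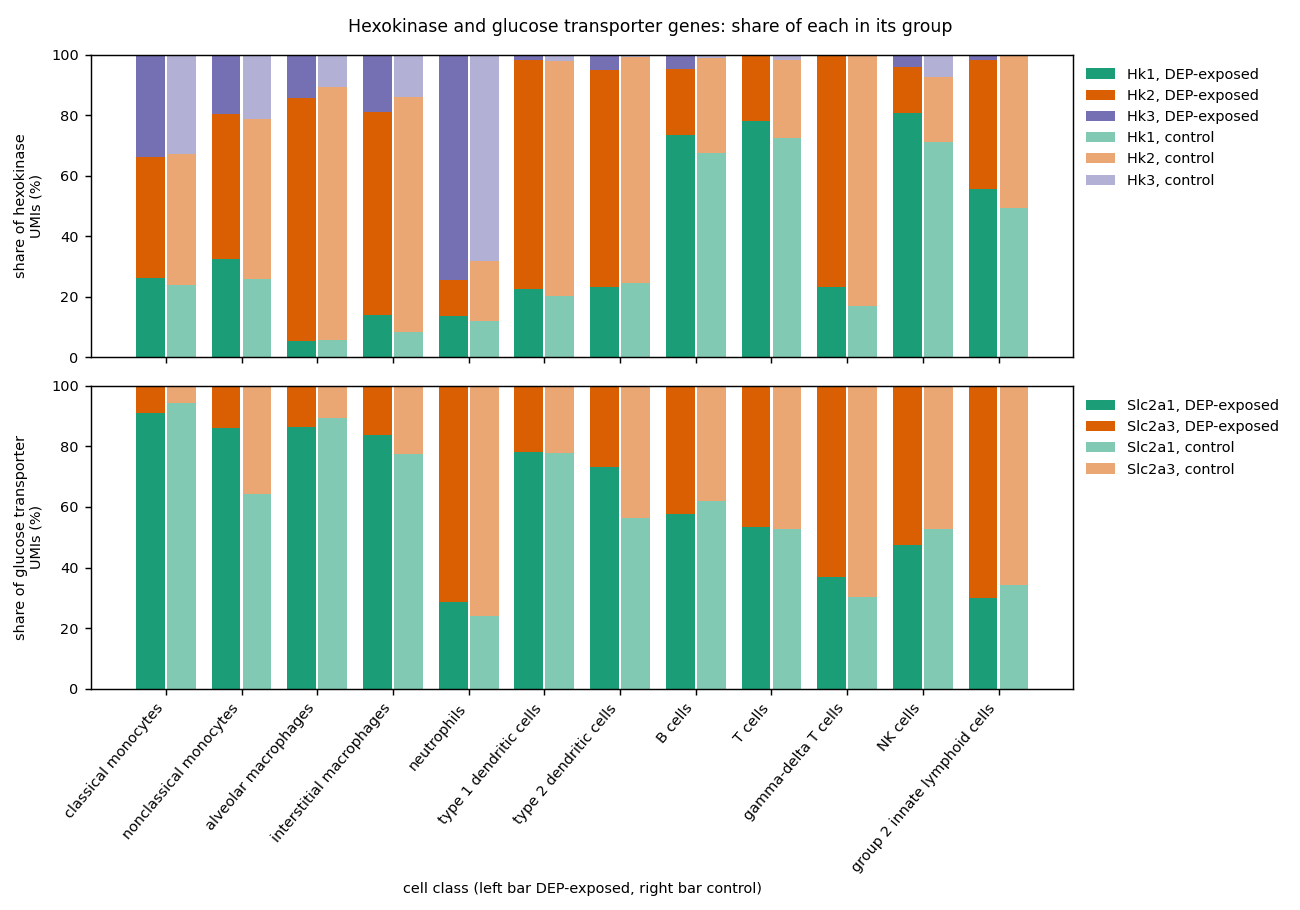
Share of hexokinase UMIs (top) and of glucose carrier UMIs (bottom) that each gene gave in 12 cell classes, as stacked bars in percent (left bar DEP-exposed, right bar control). Hk3 filled most of the neutrophil bars and Hk2 most of the alveolar macrophage bars, and the Hk2 part of the neutrophil bar was 12.0% in exposed and 20% in control cells.

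In upper glycolysis, Aldoa encodes the aldolase that splits fructose bisphosphate and led its group in UMIs. Aldoa stood at 708 and 733 CPM in exposed and control alveolar macrophages, 450.2 and 319 CPM in classical monocytes, 426 and 451 CPM in group 2 innate lymphoid cells, 377 and 390.3 CPM in gamma-delta T cells, 376 and 414 CPM in interstitial macrophages and 363 and 347 CPM in neutrophils. For Aldoa, the remaining exposed and control levels were 346 and 339.7 CPM in proliferating (cycling) cells, 341 and 297 CPM in nonclassical monocytes, 254 and 246 CPM in type 1 dendritic cells, 236 and 257 CPM in type 2 dendritic cells, 188 and 179 CPM in B cells, 185 and 177 CPM in NK cells and 161 and 144 CPM in T cells. Alveolar macrophages stood highest in both libraries. They also led for the other aldolase gene of the set, Aldoc, at 49.3 CPM in exposed and 53.7 CPM in control alveolar macrophages. Of the bifunctional enzymes that set the fructose 2,6-bisphosphate signal, Pfkfb3 was highest in interstitial macrophages (77.7 CPM exposed, 80.5 CPM control) and Pfkfb4 in alveolar macrophages (82.4 CPM exposed, 83.3 CPM control). Pfkp, a phosphofructokinase gene, was highest in type 1 dendritic cells (227 CPM exposed, 228 CPM control), while Pfkl, the liver-type form, stayed below the Pfkp level in all 13 classes of both libraries. Gpi1, the next enzyme after the hexokinases, was highest in classical monocytes (370.2 exposed and 353 control CPM), and Tpi1, which interconverts the triose phosphates, was highest among non-cycling classes in nonclassical monocytes (137 CPM exposed, 118 CPM control). The leading interval overlapped that of the next non-cycling class for Tpi1 in both libraries, and for Pfkp and Pfkfb4 in the control library.

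Lower glycolysis holds the most abundant gene of the set, Gapdh, the dehydrogenase that oxidises the triose phosphate. Gapdh stood at 1263 and 1201 CPM in exposed and control alveolar macrophages, 1159.9 and 1224 CPM in proliferating (cycling) cells, 1099 and 712 CPM in classical monocytes, 932 and 726 CPM in nonclassical monocytes, 900.3 and 685 CPM in neutrophils and 768 and 773 CPM in interstitial macrophages. For Gapdh, the remaining exposed and control levels were 763 and 701 CPM in gamma-delta T cells, 762 and 732 CPM in type 2 dendritic cells, 688 and 615 CPM in type 1 dendritic cells, 613 and 469 CPM in group 2 innate lymphoid cells, 509 and 493 CPM in NK cells, 499 and 485 CPM in T cells and 377 and 360.5 CPM in B cells. Among the 12 non-cycling classes alveolar macrophages led in both libraries, and classical monocytes were second in the exposed library. Of the 91-base stretches in the last 500 bases of its transcripts, 56.4% also occur in transcripts of 72 other annotated genes, for Eno1 60% in 4 genes and for Mif 47.1% in 2 genes, so how reads of these 3 genes were shared out with near-identical copies is uncertain. Eno1, which makes phosphoenolpyruvate, was highest in classical monocytes (302 exposed and 213 control CPM). In the exposed library the Eno1 interval there overlapped that in nonclassical monocytes. Pkm, the last step of the pathway, was highest in exposed classical monocytes (616 CPM) and in neutrophils of the control library (583 CPM). In the exposed library its interval in classical monocytes overlapped that in neutrophils (601 CPM).

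Slc16a3 encodes MCT4, a lactate exporter of glycolytic cells. Slc16a3 stood at 1282 and 1472 CPM in exposed and control neutrophils, 262 and 319.7 CPM in nonclassical monocytes, 222 and 179 CPM in classical monocytes, 39.4 and 33.9 CPM in type 2 dendritic cells, 33.1 and 47.1 CPM in interstitial macrophages and 32.1 and 37.9 CPM in alveolar macrophages. For Slc16a3, the remaining exposed and control levels were 30.7 and 27.1 CPM in proliferating (cycling) cells, 22.2 and 15.7 CPM in type 1 dendritic cells, 20.2 and 13.7 CPM in gamma-delta T cells, 9.85 and 7.59 CPM in NK cells, 9.0 and 10.5 CPM in group 2 innate lymphoid cells, 5.97 and 7.42 CPM in T cells and 3.67 and 4.01 CPM in B cells. Neutrophils were above all other classes, monocytes came next, and lymphocytes were lowest. Ldha, the lactate dehydrogenase gene, had another order, with group 2 innate lymphoid cells highest (567 exposed and 570.0 control CPM). Pdk1, a kinase that keeps pyruvate out of the mitochondrial cycle, was highest in T cells (80.7 CPM exposed, 87.8 CPM control). The gene whose class profile was most like that of Slc16a3 was Pkm (Pearson r 0.899 exposed and 0.881 control, over 12 classes that share their library), followed by Hk3 (r 0.863 exposed and 0.874 control).

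Hif1a encodes the oxygen-regulated subunit of HIF-1, whose activity is set mainly at the protein. Hif1a stood at 191 and 212 CPM in exposed and control neutrophils, 148 and 126 CPM in classical monocytes, 135 and 167 CPM in T cells, 107 and 95.7 CPM in gamma-delta T cells, 103 and 93.0 CPM in group 2 innate lymphoid cells and 89.3 and 101 CPM in alveolar macrophages. For Hif1a, the remaining exposed and control levels were 85.8 and 89.3 CPM in NK cells, 84.7 and 82.8 CPM in nonclassical monocytes, 82.3 and 117 CPM in proliferating (cycling) cells, 81.7 and 93.3 CPM in interstitial macrophages, 74.5 and 93.6 CPM in type 2 dendritic cells, 65.7 and 68.5 CPM in type 1 dendritic cells and 60.9 and 79.5 CPM in B cells. Neutrophils led in both libraries, and Hif1a was present in all 13 classes. Egln3 stood at 21.4 and 23.1 CPM in exposed and control gamma-delta T cells, 4.84 and 8.28 CPM in nonclassical monocytes, 4.13 and 8.17 CPM in NK cells, 3.53 and 3.84 CPM in T cells, 2.62 and 3.85 CPM in neutrophils and 1.50 and 0 CPM in group 2 innate lymphoid cells. For Egln3, the remaining exposed and control levels were 0.404 and 0.892 CPM in classical monocytes, 0 and 0 CPM in alveolar macrophages, 0 and 1.74 CPM in interstitial macrophages, 0 and 0.341 CPM in type 1 dendritic cells, 0 and 1.61 CPM in type 2 dendritic cells, 0 and 0.669 CPM in B cells and 0 and 0 CPM in proliferating (cycling) cells. Egln3, an oxygen-sensing hydroxylase that is itself a HIF target, was highest in gamma-delta T cells of both libraries and in no class reached 100 UMIs over both libraries. In the control library the Egln3 interval in gamma-delta T cells overlapped that in nonclassical monocytes. The 0 UMIs of Egln3 in alveolar macrophages allow up to 0.458 CPM in exposed and 0.514 CPM in control cells. Bnip3l stood at 411 and 436 CPM in exposed and control alveolar macrophages, 218 and 272 CPM in nonclassical monocytes, 213 and 233 CPM in interstitial macrophages, 184 and 185 CPM in proliferating (cycling) cells, 170.2 and 186 CPM in neutrophils and 169 and 181 CPM in NK cells. For Bnip3l, the remaining exposed and control levels were 168 and 166 CPM in classical monocytes, 162 and 179 CPM in T cells, 134 and 138 CPM in gamma-delta T cells, 133 and 138 CPM in B cells, 120.0 and 171 CPM in group 2 innate lymphoid cells, 90.1 and 111 CPM in type 2 dendritic cells and 79.2 and 97.8 CPM in type 1 dendritic cells. Bnip3l, a mitophagy receptor, was highest in alveolar macrophages, whereas its relative Bnip3 was highest in neutrophils (38.5 exposed and 38.1 control CPM).

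Vegfa encodes the main angiogenic growth factor and is a classical hypoxia target. Vegfa stood at 256 and 308 CPM in exposed and control NK cells, 245 and 369.9 CPM in neutrophils, 78.7 and 144 CPM in classical monocytes, 70.1 and 52.7 CPM in type 2 dendritic cells, 40.3 and 72.1 CPM in nonclassical monocytes and 39.1 and 32.8 CPM in interstitial macrophages. For Vegfa, the remaining exposed and control levels were 9.49 and 5.26 CPM in gamma-delta T cells, 9.0 and 13.5 CPM in group 2 innate lymphoid cells, 5.44 and 7.76 CPM in B cells, 5.15 and 7.49 CPM in type 1 dendritic cells, 4.96 and 8.63 CPM in alveolar macrophages, 4.26 and 5.30 CPM in T cells and 3.78 and 11.7 CPM in proliferating (cycling) cells. NK cells and neutrophils were highest and classical monocytes followed. A Vegfa UMI was found in 50% of exposed and 50.9% of control NK cells, against 1.67% of exposed and 2.54% of control B cells. The median cell held 4229.5 UMIs in exposed and 4054 in control NK cells, against 3651 in exposed and 3314.5 in control B cells. With every cell thinned to 1000 UMIs the shares were 19.6% of exposed and 22.7% of control NK cells, 0.377% of exposed and 0.730% of control alveolar macrophages and 0.334% of exposed and 0.562% of control B cells. The alveolar macrophage share was thus at the level of B cells and is read as background. Of the other hypoxia genes, Ero1l, an oxidase of protein folding, was highest in gamma-delta T cells (148 exposed and 169 control CPM), P4ha1, a collagen hydroxylase subunit, in nonclassical monocytes (60.5 CPM exposed, 61.3 CPM control) and Adm, which encodes the vasodilator adrenomedullin, in B cells (12.8 CPM exposed, 16.6 CPM control). The leading interval overlapped that of the next non-cycling class for P4ha1 in the control and for Adm in the exposed library. Mif, a cytokine gene, was highest in T and gamma-delta T cells (278 CPM exposed, 286 CPM control, in T cells). Ndrg1, a stress-response gene, was highest in exposed classical monocytes (80.9 CPM) and in neutrophils of the control library (80.9 CPM). In the control library its interval in neutrophils overlapped that in classical monocytes (76.1 CPM).

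For the comparison of exposed with control cells, which asks what DEP inhalation changes in lung leukocytes, a gene was counted in a class when both libraries together held at least 100 UMIs there. It was called higher or lower when the ratio of exposed to control level was at least 1.3-fold and its interval left out 1. A call describes these 2 libraries. Over 13 classes the members gave 276 counted ratios, of which 12 were called higher and 30 lower in exposed cells. Of all genes, the share called higher ran from 1.37% in B cells to 10.1% in classical monocytes. The share called lower ran from 4.96% in gamma-delta T cells to 13.1% in neutrophils. In each of the 13 classes more of all genes were called lower than higher, so the surplus of lower calls was not particular to the members. Of the 31 genes, 20 were called in at least 1 class and 11 in none. The members called in most classes were Hk2, lower in 5 of the 9 classes where it was counted, and Vegfa, lower in 4 and higher in 1 of 7. The share of all genes called in as many classes was not computed, and all classes come from the same 2 libraries. In classical monocytes the Hk2 call was lost with per-cell marker gates and without cells with a UMI of Lrg1, Saa3 or Prtn3. Of the 4 lower Vegfa calls, that in alveolar macrophages was at a level read above as background. The interval of the higher Vegfa call, in type 2 dendritic cells, barely left out 1. The share of all genes called is given class by class below. Gapdh was called higher in 3 of 13 classes and lower in 0.

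**Figure D3:**
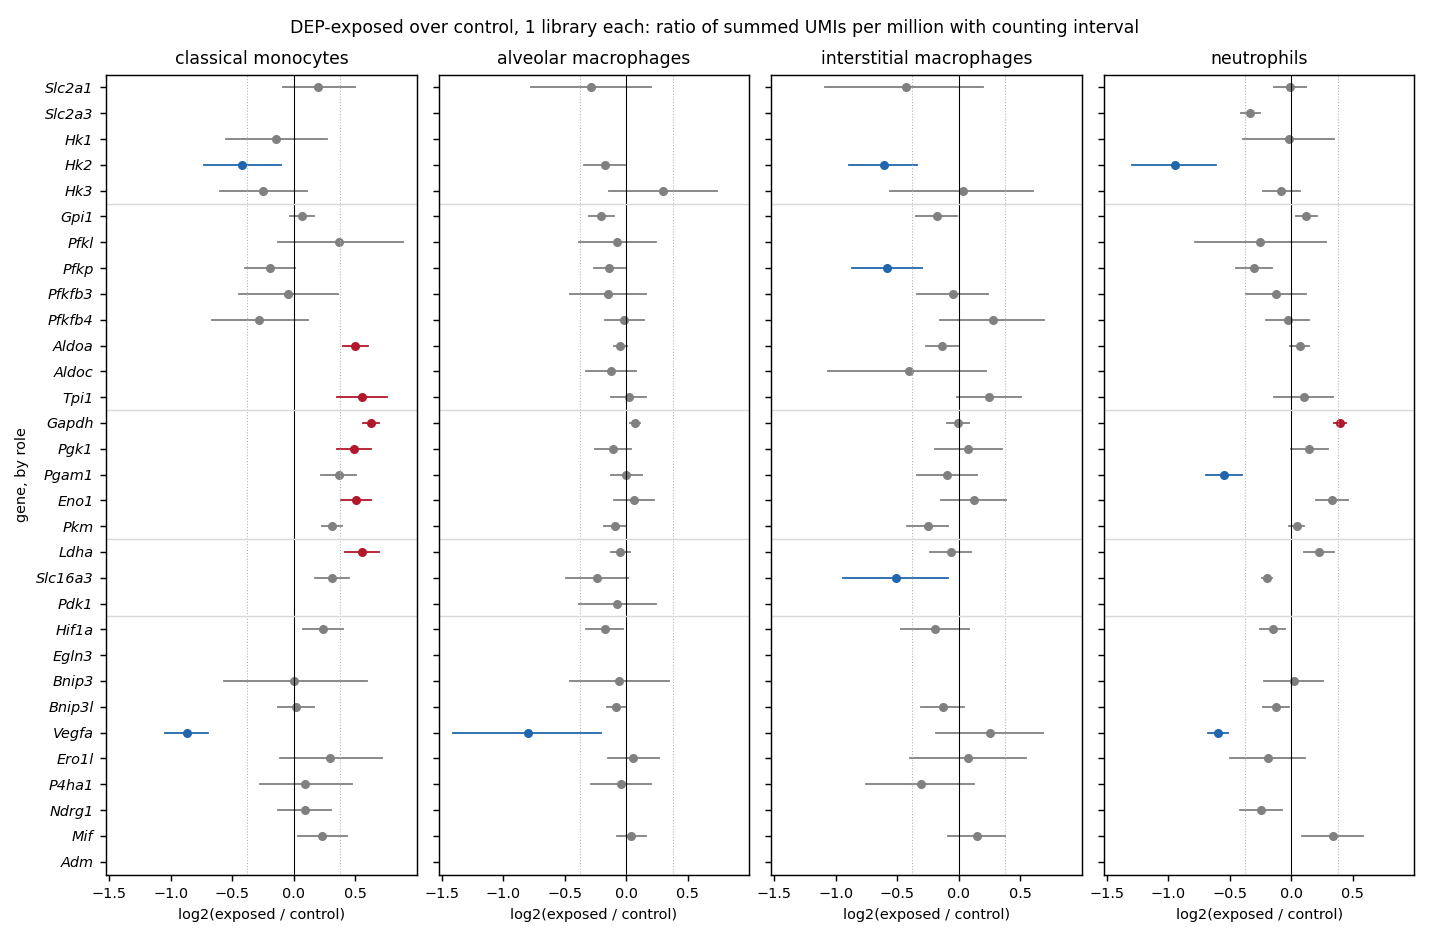
Log2 ratio of exposed over control level of each counted gene in 4 classes, 1 library each, with its exact 95% counting interval as a bar (red, called higher in exposed cells; blue, called lower; grey, not called; dotted lines, 1.3-fold; genes with under 100 UMIs have no point). In classical monocytes all 5 genes of lower glycolysis lie right of 0, and in alveolar macrophages nearly all points lie near 0.

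Classical monocytes of the exposed library gave a larger share of their UMIs to Aldoa, Tpi1, Gapdh, Pgk1, Eno1 and Ldha, and a smaller share to Hk2 and Vegfa. Of the 31 genes 26 were counted, and 6 were called higher, beside 10.1% of all 6578 genes counted there, and 2 lower, beside 12.8% of all genes. The median log2 ratio of the counted members was 0.21, against -0.04 over all genes. The 31 genes summed to 4778 CPM in exposed and 3801 CPM in control classical monocytes (ratio 1.26, interval 1.23 to 1.28). Slc2a3, Aldoc, Pdk1, Egln3 and Adm were not counted.

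By role, 3 of the 5 genes of lower glycolysis were called higher and the other 2, Pgam1 and Pkm, had ratios of 1.29 and 1.24. The median log2 ratio of the 5 was 0.49. Gapdh (ENSMUSG00000057666, chromosome 6, 125161715 to 125166467) gave 8166 UMIs (1099 CPM) in exposed and 2396 UMIs (712 CPM) in control cells (ratio 1.54, interval 1.47 to 1.62). Pgk1 (ENSMUSG00000062070, chromosome X, 106187100 to 106203699), the kinase that makes the first ATP of the pathway, gave 1796 UMIs (242 CPM) in exposed and 580 UMIs (172 CPM) in control cells (ratio 1.40, interval 1.28 to 1.54). Eno1 (ENSMUSG00000063524, chromosome 4, 150236721 to 150248879) gave 2244 UMIs (302 CPM) in exposed and 715 UMIs (213 CPM) in control cells (ratio 1.42, interval 1.31 to 1.55). All 3 were higher in the exposed library, with intervals well above 1. In upper glycolysis, Aldoa (ENSMUSG00000030695, chromosome 7, 126795234 to 126800751) gave 3345 UMIs (450.2 CPM) in exposed and 1072 UMIs (319 CPM) in control cells (ratio 1.41, interval 1.32 to 1.51). Tpi1 (ENSMUSG00000023456, chromosome 6, 124810586 to 124814296) gave 854 UMIs (115 CPM) in exposed and 263 UMIs (78.2 CPM) in control cells (ratio 1.47, interval 1.28 to 1.69). Downstream, Ldha (ENSMUSG00000063229, chromosome 7, 46841475 to 46855627) gave 1752 UMIs (236 CPM) in exposed and 541 UMIs (161 CPM) in control cells (ratio 1.47, interval 1.33 to 1.62). These 3 ratios lay in the range of the lower steps. Coordinates are from GENCODE release M21 on mm10. The genes at the entry of the pathway were not called higher. Hk2 (ENSMUSG00000000628, chromosome 6, 82725025 to 82774454) gave 230 UMIs (31 CPM) in exposed and 139 UMIs (41.3 CPM) in control cells (ratio 0.749, interval 0.604 to 0.931) and was called lower, and Slc2a1 and Hk3, which were not called, had ratios of 1.15 (interval 0.939 to 1.41) and 0.841 (0.660 to 1.08). Among hypoxia genes, Vegfa (ENSMUSG00000023951, chromosome 17, 46016993 to 46032369) gave 585 UMIs (78.7 CPM) in exposed and 484 UMIs (144 CPM) in control cells (ratio 0.547, interval 0.484 to 0.619) and was called lower, while Hif1a stood at 148 CPM in exposed and 126 CPM in control classical monocytes (ratio 1.18, interval 1.05 to 1.32) and was not called.

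Several measurements moved with these calls. Exposed classical monocytes were deeper, with a median of 12302.5 UMIs against 8785.5 in control. The 6 neutrophil genes S100a8, S100a9, Retnlg, Csf3r, Cxcr2 and Mmp8 summed to 1201 CPM in exposed and 666 CPM in control cells. The 12 immediate early and dissociation stress genes (Fos, Fosb, Jun, Junb, Jund, Egr1, Atf3, Ier2, Dusp1, Hspa1a, Hspa1b and Zfp36) summed to 7109.9 CPM in exposed and 8039 CPM in control cells. The part of these in the calls was not tested. A UMI of Lrg1, Saa3 or Prtn3, acute-phase and granule genes, occurred in 338 of 586 exposed and 28 of 376 control classical monocytes, and these cells were deeper (medians 14382 UMIs exposed, 10303 control) than the rest (9922 exposed, 8724.5 control). Among the 248 exposed and 348 control cells with no such UMI, 1 of the 6 genes, Tpi1, was still called higher (ratio 1.36, interval 1.14 to 1.63). The other 5 had ratios of 1.16 for Gapdh, 1.14 for Pgk1, 1.26 for Eno1, 1.28 for Aldoa and 1.26 for Ldha, each with an interval whose lower end was at or above 1. Vegfa stood at 0.770 (interval 0.662 to 0.896) and Hk2 at 0.985 (0.752 to 1.29).

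Within the exposed library, cells with an acute-phase UMI against those without had ratios of 1.53 (interval 1.45 to 1.61) for Gapdh and 1.34 (interval 1.21 to 1.49) for Pgk1, both called higher, and of 0.534 (interval 0.452 to 0.630) for Vegfa, 0.619 (interval 0.473 to 0.811) for Hk2 and 0.634 (interval 0.459 to 0.880) for Pfkfb4, called lower. That is 2 of 25 counted members higher, beside 7.43% of all genes, and 3 lower, beside 8.48%. In the control library, where 28 cells had such a UMI, Vegfa was also called lower in them, at 0.619 (interval 0.400 to 0.919), as was Bnip3l, at 0.620 (interval 0.414 to 0.895). This is 2 of 19 counted members beside 4.73% of all genes, and 0 were called higher, beside 2.31%. The direction of Vegfa was thus the same in both libraries.

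**Figure D4:**
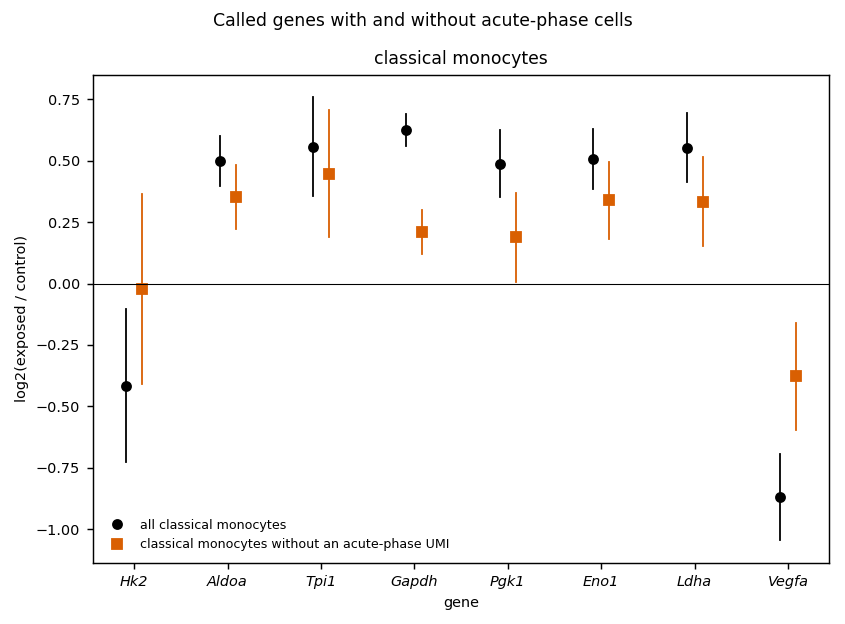
Log2 ratio of exposed over control level, with its 95% counting interval as a bar, of the 8 genes called in classical monocytes, in all cells of the class (circles) and in the cells without an acute-phase UMI (squares). Without acute-phase cells the points lie nearer to 0, with Hk2 near 0 and Vegfa still below it.

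In neutrophils, 26 of 31 genes were counted, 1 was called higher (beside 5.42% of all 5715 genes) and 3 lower (beside 13.1%). Aldoc, Pdk1, Egln3, P4ha1 and Adm were not counted. The median log2 ratio was -0.06 for the members and -0.09 for all genes. With ratios centred on the median of all genes, 3 genes were called higher (Gapdh, Eno1 and Mif) and 3 lower. As shares of the members counted, both counts were near those of all genes, so the values below describe single genes. Gapdh gave 7222 UMIs (900.3 CPM) in exposed and 5162 UMIs (685 CPM) in control neutrophils (ratio 1.31, interval 1.27 to 1.36) and was the gene called higher. Its neighbour in the pathway Pgam1, the mutase that moves the phosphate, gave 667 UMIs (83.2 CPM) in exposed and 917 UMIs (122 CPM) in control neutrophils (ratio 0.684, interval 0.618 to 0.756) and was called lower, so lower glycolysis had calls in both directions in this class. Hk2 gave 113 UMIs (14.1 CPM) in exposed and 205 UMIs (27.2 CPM) in control neutrophils (ratio 0.518, interval 0.408 to 0.655). Vegfa gave 1963 UMIs (245 CPM) in exposed and 2788 UMIs (369.9 CPM) in control neutrophils (ratio 0.662, interval 0.624 to 0.701). Both were lower in exposed cells, as in classical monocytes. The most abundant carrier genes were not called: Slc16a3 stood at 1282 CPM in exposed and 1472 CPM in control neutrophils (ratio 0.871, interval 0.848 to 0.895) and Slc2a3 at 316 CPM in exposed and 398 CPM in control neutrophils (ratio 0.794, interval 0.753 to 0.837). Hif1a stood at 191 CPM in exposed and 212 CPM in control neutrophils (ratio 0.90, interval 0.838 to 0.966). The class joins clusters that the libraries filled in part unequally. The interferon-led cluster held 256 exposed and 154 control cells, and that led by Retnlg 1147 exposed and 1378 control cells. The cluster led by Acod1 held 1199 exposed and 1206 control cells. The early genes named above summed to 15789 CPM in exposed and 16942 CPM in control neutrophils. The part of these in the calls was not tested.

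In interstitial macrophages, 23 genes were counted, 0 were called higher (beside 3.38% of all 5851 genes) and 3 lower (beside 8.63%). Slc2a3, Hk1, Pfkl, Pdk1, Egln3, Bnip3, Ndrg1 and Adm were not counted. The median log2 ratio was -0.10, against -0.04 over all genes. Hk2 gave 149 UMIs (74.7 CPM) in exposed and 393 UMIs (114 CPM) in control cells (ratio 0.654, interval 0.538 to 0.792). Pfkp gave 148 UMIs (74.2 CPM) in exposed and 382 UMIs (111 CPM) in control cells (ratio 0.668, interval 0.549 to 0.810). Slc16a3 gave 66 UMIs (33.1 CPM) in exposed and 162 UMIs (47.1 CPM) in control cells (ratio 0.703, interval 0.520 to 0.941). Hk2 kept its call in every alternative run, whereas Pfkp and Slc16a3 lost theirs with per-cell marker gates and with finer clusters. With finer clusters Slc16a3 turned to a log2 ratio of 0.15. Slc16a3 also lost its call where each cell weighs the same and at a minimum of 500 UMIs. Neither Pfkp nor Slc16a3 was called at 1.5-fold. The 6 neutrophil genes named above summed to 780.5 CPM in exposed and 1282 CPM in control interstitial macrophages, and the 12 early genes to 11619.9 CPM in exposed and 10473 CPM in control cells. Median depth was 11212 UMIs in exposed and 14293 UMIs in control cells. Slc16a3 is highest in neutrophils in both libraries, and the part of these measures in its call was not tested. Lower glycolysis stood at a median log2 ratio of -0.01, with 0 of 5 genes called.

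In alveolar macrophages, 26 genes were counted, 0 were called higher (beside 1.85% of all 8204 genes) and 1 lower (beside 5.75%). Slc2a3, Hk1, Egln3, Ndrg1 and Adm were not counted. The median log2 ratio was -0.07, against -0.06 over all genes. The called gene was Vegfa, with 40 UMIs (4.96 CPM) in exposed and 62 UMIs (8.63 CPM) in control cells (ratio 0.575, interval 0.376 to 0.869), at the background level given above. As a share of the members counted this was near that of all genes. Without a shallow cluster led by Igkc (32 exposed and 35 control cells), an alternative added after seeing the data, its log2 ratio was -0.92, against -0.80 in all cells, but it fell under the minimum of 100 UMIs. Aldoa stood at 708 CPM in exposed and 733 CPM in control alveolar macrophages (ratio 0.967, interval 0.931 to 1.00) and Gapdh at 1263 CPM in exposed and 1201 CPM in control alveolar macrophages (ratio 1.05, interval 1.02 to 1.08). Hk2, which was called lower in the other 3 of these classes, stood at 73.7 CPM in exposed and 83.3 CPM in control alveolar macrophages (ratio 0.885, interval 0.789 to 0.993).

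In nonclassical monocytes (17 genes counted, cells rich in neutrophil UMIs set apart), Eno1 was called higher (339 UMIs or 273 CPM in exposed and 207 UMIs or 171 CPM in control cells, ratio 1.59, interval 1.34 to 1.90) and Vegfa lower (50 UMIs or 40.3 CPM in exposed and 87 UMIs or 72.1 CPM in control cells, ratio 0.560, interval 0.387 to 0.801), beside 5.36% and 11.3% of all genes. Gapdh (ratio 1.28, interval 1.18 to 1.40) and Bnip3l (ratio 0.802, interval 0.680 to 0.944) came next and were not called. The direction of Eno1 and Vegfa was that of classical monocytes. Non-leukocyte markers summed to 111 CPM in exposed and 5488 CPM in control nonclassical monocytes, and their part was not tested. In type 1 dendritic cells (22 counted) Pgam1 was called higher (ratio 1.36, interval 1.19 to 1.56), beside 5.1% of all genes, and Ldha came next without a call (ratio 1.23, interval 1.13 to 1.34). Pfkfb3 (ratio 0.599, interval 0.403 to 0.883) and Hk2 (178 UMIs or 57.3 CPM in exposed and 224 UMIs or 76.3 CPM in control cells, ratio 0.751, interval 0.614 to 0.919) led the 3 called lower, the third being Slc2a1, beside 5.66%. In type 2 dendritic cells (21 counted) Hk2 (114 UMIs or 71.3 CPM in exposed and 204 UMIs or 109.8 CPM in control cells, ratio 0.650, interval 0.512 to 0.821) and Slc2a1 (ratio 0.606, interval 0.420 to 0.865) led the 3 called lower, the third being Hk1, beside 11.4%. Vegfa was called higher (112 UMIs or 70.1 CPM in exposed and 98 UMIs or 52.7 CPM in control cells, ratio 1.33, interval 1.00 to 1.76), beside 5.71%, and Ldha was next without a call (ratio 1.18, interval 1.04 to 1.34). Hk2 was thus lower in exposed cells of both dendritic classes, as it was in classical monocytes, neutrophils and interstitial macrophages.

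Lymphoid classes gave few calls. In B cells, where the median log2 ratio over all genes was itself -0.15, 0 of 25 were higher (beside 1.37% of all genes) and 3 lower (beside 12.1%), led by Hif1a (ratio 0.767, interval 0.677 to 0.868) and Slc2a1 (ratio 0.727, interval 0.598 to 0.882), the third being Pfkp. Eno1 was not called (ratio 1.16, interval 1.03 to 1.31). In T cells, with a median of -0.12 over all genes, 0 of 24 were higher (beside 1.57%) and 2 lower (beside 9.98%), led by Ndrg1 (64 UMIs or 7.79 CPM in exposed and 118 UMIs or 15.6 CPM in control cells, ratio 0.498, interval 0.362 to 0.681), the other being Pfkfb3. Hif1a (ratio 0.808, interval 0.744 to 0.876), Eno1 (ratio 1.19, interval 1.08 to 1.32) and Ldha (ratio 1.16, interval 1.08 to 1.24) were not called. In NK cells Ndrg1 was called higher (81 UMIs or 25.7 CPM in exposed and 59 UMIs or 17.2 CPM in control cells, ratio 1.49, interval 1.06 to 2.13), beside 2.49% of all genes, and 2 of 21 were lower, P4ha1 (ratio 0.653, interval 0.441 to 0.958) and Ero1l, beside 5.91%. Vegfa (ratio 0.832, interval 0.758 to 0.913) and Eno1 (ratio 1.23, interval 1.09 to 1.39) were not called. In gamma-delta T cells Pfkp was lower (ratio 0.741, interval 0.591 to 0.926), 1 of 14 beside 4.96%, 0 were higher beside 3.61%, and Pgk1 was not called (ratio 1.27, interval 1.01 to 1.6). In group 2 innate lymphoid cells (11 counted) Gapdh was higher (ratio 1.31, interval 1.12 to 1.52) and Bnip3l lower (ratio 0.702, interval 0.520 to 0.942), beside 5.97% and 6.4%, and Mif was not called (ratio 1.29, interval 1.01 to 1.64). In cycling cells, which are a mixture of lineages (82 exposed and 118 control cells), 0 of 20 were higher (beside 5.96%) and 5 lower (beside 9.88%), led by Mif (ratio 0.650, interval 0.564 to 0.748) and P4ha1 (ratio 0.511, interval 0.324 to 0.786), the others being Pgk1, Hif1a and Ero1l. The class joins 2 clusters that the libraries filled unequally, with 71 exposed and 79 control cells in one and 11 exposed and 39 control cells in the other, and the part of this in the calls was not tested.

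A further 65 genes of the same pathways were read beside the members. The shares of all genes called higher and lower were 10.1% and 12.8% in classical monocytes and 5.42% and 13.1% in neutrophils. They were 3.38% and 8.63% in interstitial macrophages and 1.85% and 5.75% in alveolar macrophages. As shares of the genes counted, the counts below were near or under these values, so they describe single genes. In classical monocytes 36 were counted, with 3 called higher and 3 lower. The higher ones were Bhlhe40 (1215 UMIs or 164 CPM in exposed and 361 UMIs or 107 CPM in control cells, ratio 1.52, interval 1.35 to 1.72), a hypoxia-inducible repressor, Pgm1 (206 UMIs or 27.7 CPM in exposed and 57 UMIs or 16.9 CPM in control cells, ratio 1.64, interval 1.21 to 2.23), a gene of the phosphoglucomutase family, and Dld (338 UMIs or 45.5 CPM in exposed and 110 UMIs or 32.7 CPM in control cells, ratio 1.39, interval 1.12 to 1.74), a subunit of pyruvate dehydrogenase. The lower ones were Ldhb (182 UMIs or 24.5 CPM in exposed and 134 UMIs or 39.8 CPM in control cells, ratio 0.615, interval 0.489 to 0.774), the other lactate dehydrogenase gene, G6pdx (602 UMIs or 81.0 CPM in exposed and 364 UMIs or 108 CPM in control cells, ratio 0.749, interval 0.656 to 0.855), which opens the pentose phosphate branch, and Vhl (71 UMIs or 9.56 CPM in exposed and 49 UMIs or 14.6 CPM in control cells, ratio 0.656, interval 0.449 to 0.964), which targets HIF-1α for destruction. The other 6 pentose phosphate enzyme genes were counted there and not called. In neutrophils 31 were counted, with 1 higher, Pgm1 (ratio 1.44, interval 1.14 to 1.82), and 5 lower, among them Bhlhe40 (893 UMIs or 111 CPM in exposed and 1191 UMIs or 158 CPM in control cells, ratio 0.705, interval 0.645 to 0.769) and Arnt (437 UMIs or 54.5 CPM in exposed and 547 UMIs or 72.6 CPM in control cells, ratio 0.751, interval 0.661 to 0.853), the partner of HIF-1α. The others were Kdm3a, Vhl and Pdhb. Bhlhe40 thus had opposite directions in the 2 classes, a difference that was not tested. In interstitial macrophages 26 were counted, with Hmox1 (593 UMIs or 297 CPM in exposed and 483 UMIs or 140.3 CPM in control cells, ratio 2.12, interval 1.88 to 2.39), the heme-degrading oxygenase, called higher, and 3 lower, Dlat (ratio 0.606, interval 0.395 to 0.909), G6pdx (ratio 0.702, interval 0.524 to 0.932) and the monocarboxylate carrier gene Slc16a7 (ratio 0.651, interval 0.434 to 0.960). In alveolar macrophages 41 were counted and 1 was called, Vhl (136 UMIs or 16.9 CPM in exposed and 198 UMIs or 27.6 CPM in control cells, ratio 0.612, interval 0.488 to 0.765), lower. Vhl was lower in exposed cells of 3 of the 4 classes.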

How the data were processed

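The deposited files are 2 matrices of whole-number UMI counts per gene and cell barcode, 1 for the DEP-exposed and 1 for the control library. The authors made these counts with Cell Ranger, version 3.1.3 per the submitters' processing notes and 3.1.0 per the file headers, against mm10. The annotation release and the steps behind the barcode filter are not given in the sources used here.

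Kept barcodes had 500 UMIs or more, 200 genes or more and a mitochondrial share of no more than 10% (9396 exposed and 9691 control), and 706 exposed and 751 control barcodes were removed as likely doublets by a simulation of 2 artificial doublets per cell at an expected 0.8% per 1000 cells. Both libraries were clustered together (2000 variable genes without the 31 members, 30 principal components, 20 neighbours, Leiden resolution 1) and clusters were named where at least 3 fixed markers were among the 50 leading genes. Nonclassical monocytes with at least 1% of their UMIs from the neutrophil list (103 exposed and 114 control cells) were set apart, a step chosen after seeing the data. UMIs were summed per class and library. With 1 library per condition no test across samples was possible, so ratios carry exact conditional binomial intervals at 95%, levels exact Poisson and shares exact Clopper-Pearson intervals. Calls were made at 100 UMIs and 1.3-fold. In each of the 4 classes described in full every called member was named, in the other classes the 2 highest and the 2 lowest by the bound nearest to 1, and 11 members were followed through all classes. Members, gene lists and thresholds were chosen with earlier results of these data known. Work was done in Python 3.11.15 with numpy 2.4.6, scipy 1.17.1, scikit-learn 1.9.0, leidenalg 0.10.2 and igraph 0.11.9. A division of neutrophils by marker sets is not reported here.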

Additional observations from a re-analysis of the deposited data

Results flagged for a closer look

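For 4 genes the call in exposed over control cells had opposite directions in different classes. The share of all genes with such opposite calls was not computed, so this is not shown to be particular to the members. The differences between classes were not tested, and each class has 1 library per condition. Vegfa, the angiogenic growth factor gene, had log2 ratios of -0.87 in classical monocytes, -0.84 in nonclassical monocytes, -0.80 in alveolar macrophages and -0.60 in neutrophils, but 0.41 in type 2 dendritic cells. The alveolar macrophage level was read above as background, and its call was lost with doublets kept and where each cell weighs the same. Vegfa had too few UMIs there to be counted at a minimum of 500 UMIs, with marker gates and without the Igkc-led cluster. In type 2 dendritic cells the interval began close to no difference, and that class was not recomputed under other settings. Pgam1, the phosphoglycerate mutase gene, stood at -0.55 in neutrophils and 0.45 in type 1 dendritic cells. Ndrg1, a stress-response gene, stood at -1.01 in T cells and 0.58 in NK cells. Pgk1, which makes the first ATP of glycolysis, stood at 0.49 in classical monocytes and -0.38 in cycling cells, whose 2 clusters the libraries filled unequally (71 exposed and 79 control cells, and 11 exposed and 39 control cells).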

How the results depend on the processing

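Calls were recomputed in classical monocytes, neutrophils and both macrophage classes and, for keeping the neutrophil-rich cells, in nonclassical monocytes, and not in the other classes. Of 203 log2 ratios of the 18 gene and class pairs called there, 188 stayed past the 1.3-fold and interval thresholds. The minimum of UMIs was not applied to this count. Changing that minimum (to 20 or 500) or the fold (to 1.5) left each ratio and interval unchanged. Those values could not fail, so 188 is not a count of calls that held. 2 ratios reversed: Vegfa in alveolar macrophages (0.013 where each cell weighs the same) and Slc16a3 in interstitial macrophages (0.15 at Leiden resolution 1.6). The cause was not tested. Of 100 recomputed counts of calls, 77 stayed within 1.5 times of the value given. In classical monocytes the 6 genes called higher became 1 at 1.5-fold (Gapdh) and 1 without cells with a UMI of Lrg1, Saa3 or Prtn3 (Tpi1), and the 2 called lower became 1 with per-cell marker gates, 1 at a minimum of 500 UMIs, 1 at 1.5-fold and 0 without those cells. In alveolar macrophages 1 gene instead of 0 was called higher with doublets kept (Ndrg1), and the 1 called lower became 2 with stricter cells (at least 1000 UMIs, at most 5% mitochondrial), 3 at resolution 1.6, 0 with doublets kept (Vegfa log2 ratio -0.23, against -0.80), and 0 at 500 UMIs, with marker gates (-0.71) and without the shallow cluster led by Igkc (-0.92), where Vegfa had too few UMIs to be counted. In interstitial macrophages the 0 called higher became 1 with stricter cells, 2 at resolution 1.6, 1 with marker gates and 2 where each cell weighs the same, and the 3 called lower became 5 with stricter cells, 5 with doublets kept, 5 where each cell weighs the same and 1 at 1.5-fold. In neutrophils the 1 gene called higher became 3 with centred ratios and 0 at 1.5-fold. Leaving out the Igkc-led cluster and keeping the neutrophil-rich nonclassical monocytes, where Eno1 stood at 0.58 and Vegfa at -0.77, were chosen after seeing the data. No paired analysis was possible because each condition has 1 library. Depth limits the calls for rare genes and classes: Egln3 was counted in no class, and 11 members were counted in group 2 innate lymphoid cells.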
